A study of Mus musculus with 36 samples.

Results

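Cholesterol crystals lowered the transcripts of cholesterol synthesis and uptake in cyclodextrin-treated macrophages that lack both liver X receptors (LXR). The comparison set 4 arrays of crystal-loaded macrophages against 4 arrays of unloaded macrophages. Both groups came from LXRa/LXRb dko mice and were treated with cyclodextrin (CD), so these 8 of the 36 arrays of the series differ by design only in the crystals. The arrays were chosen by their labelled agent, treatment and genotype, and no measured value entered the choice. All 14416 genes that passed the filter on detection were tested.

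The cells were bone marrow derived macrophages grown in M-CSF, the growth factor that drives marrow precursors into macrophages. The mice were C57BL/6 and 2 to 5 months old. The loaded group received cholesterol crystals for 3 h, the excess was removed, and 10 mM CD followed for 4 h. The unloaded group received no crystals and the same CD. Of the 28 other arrays, 8 were dko macrophages without CD, with or without crystals, and 20 were wild-type (wt) macrophages in the same 4 treatments, 5 arrays in each. The labels name a total deletion of both receptors and give neither littermate controls nor how many mice stand behind an array, so p-values measure the spread between arrays.

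As background, macrophages sense their membrane cholesterol through the transcription factor SREBP2. When sterol is scarce, the escort protein SCAP carries SREBP2 to the Golgi, where it is cut and freed to switch on genes of cholesterol synthesis and uptake. When sterol is plentiful, INSIG proteins hold the complex in the endoplasmic reticulum and these genes fall. LXRs act on the other side, since oxysterols activate them to switch on cholesterol export, desaturases and the related factor SREBP1c. Cyclodextrins are sugar rings that hold cholesterol in their core and carry it between membranes and medium.

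The 8 arrays fell into 2 sets that the labels do not name. In each group, 2 arrays carried Xist, the transcript of the inactive X chromosome, at a log2 level of 10.34 to 10.56, and the other 2 carried the Y-linked Ddx3y at 10.11 to 10.47. The first principal component held 63.1% of the variance and separated these sets, and 859 genes lay more than 1 log2 unit apart between the sets against 64 between the loaded and unloaded groups. Arrays with Y-linked transcripts were higher in genes of the NF-kB list (median difference 2.00), and lower in stromal markers and in immunoglobulin transcripts such as Igkc (difference -4.64). Each group held both sets equally. The part of the sets in the results below was measured with the set as a block, an alternative chosen after seeing the data, and within each set. Macrophage markers were present, with 13 of the 14 listed markers detected on all 8 arrays and summed intensities of 58620 to 65954 in loaded and 61343 to 76825 in unloaded arrays. T, NK, B and dendritic cell markers had low summed intensities in both groups, at most 134 for any of these lists. Few were measured, 2 of 12 for T and NK, 4 of 8 for B and 3 of 10 for dendritic cells. Stromal markers summed to 4263 to 8067 in loaded and 3894 to 8240 in unloaded arrays. Neutrophil markers, 5 of 13 measured, summed to 270 to 1006 and 235 to 727. Igkc averaged 12.10 in arrays with Xist and 7.46 in those with Y-linked transcripts, so other cell types are not excluded.

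The targeted genes were read first. Nr1h3, which encodes LXRa, had log2 levels of 10.87, 10.60, 10.61 and 10.91 in the loaded arrays (label numbers 6, 7, 8 and 9) and of 10.34, 10.61, 10.57 and 10.58 in the unloaded arrays. Nr1h2, which encodes LXRb, averaged 9.25 ± 0.49 (SD, n = 4) in loaded and 9.31 ± 0.07 in unloaded arrays. These levels were close to those of wt macrophages, where Nr1h3 averaged 10.71 ± 0.60 (SD, n = 5) with crystals and CD. The labels do not place these probes against the deleted sequence, so they check nothing about the genotype. Abcg1, the cholesterol exporter that LXR controls, rose by 5.13 on the log2 scale with crystals under CD in wt and had a difference of -0.23 in dko arrays, as described below.

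With crystals, 68 genes passed an adjusted p of 0.05 in limma's moderated test, 20 higher and 48 lower. That is 0.472% of the genes tested, 0.139% higher and 0.333% lower. Each of the 68 had all 4 loaded arrays on the changed side of the unloaded mean. The loaded and unloaded arrays did not overlap for 48 of the 48 genes called lower and 19 of the 20 called higher, against 1.82% and 1.86% of all genes in those directions. The 68 were called on these same arrays, so neither count is independent evidence for the calls. In bulk RNA, fewer cells of a type and less RNA per cell cannot be told apart. With the array set as a block, 159 genes were called (72 higher and 87 lower, 1.1% of those tested), and these included all 68. A slide block gave 84 calls, 63 of them among the 68. Of the 68, 41 stayed called whichever array was left out, among them 35 of the 48 falls and 6 of the 20 rises.

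**Figure D1:**
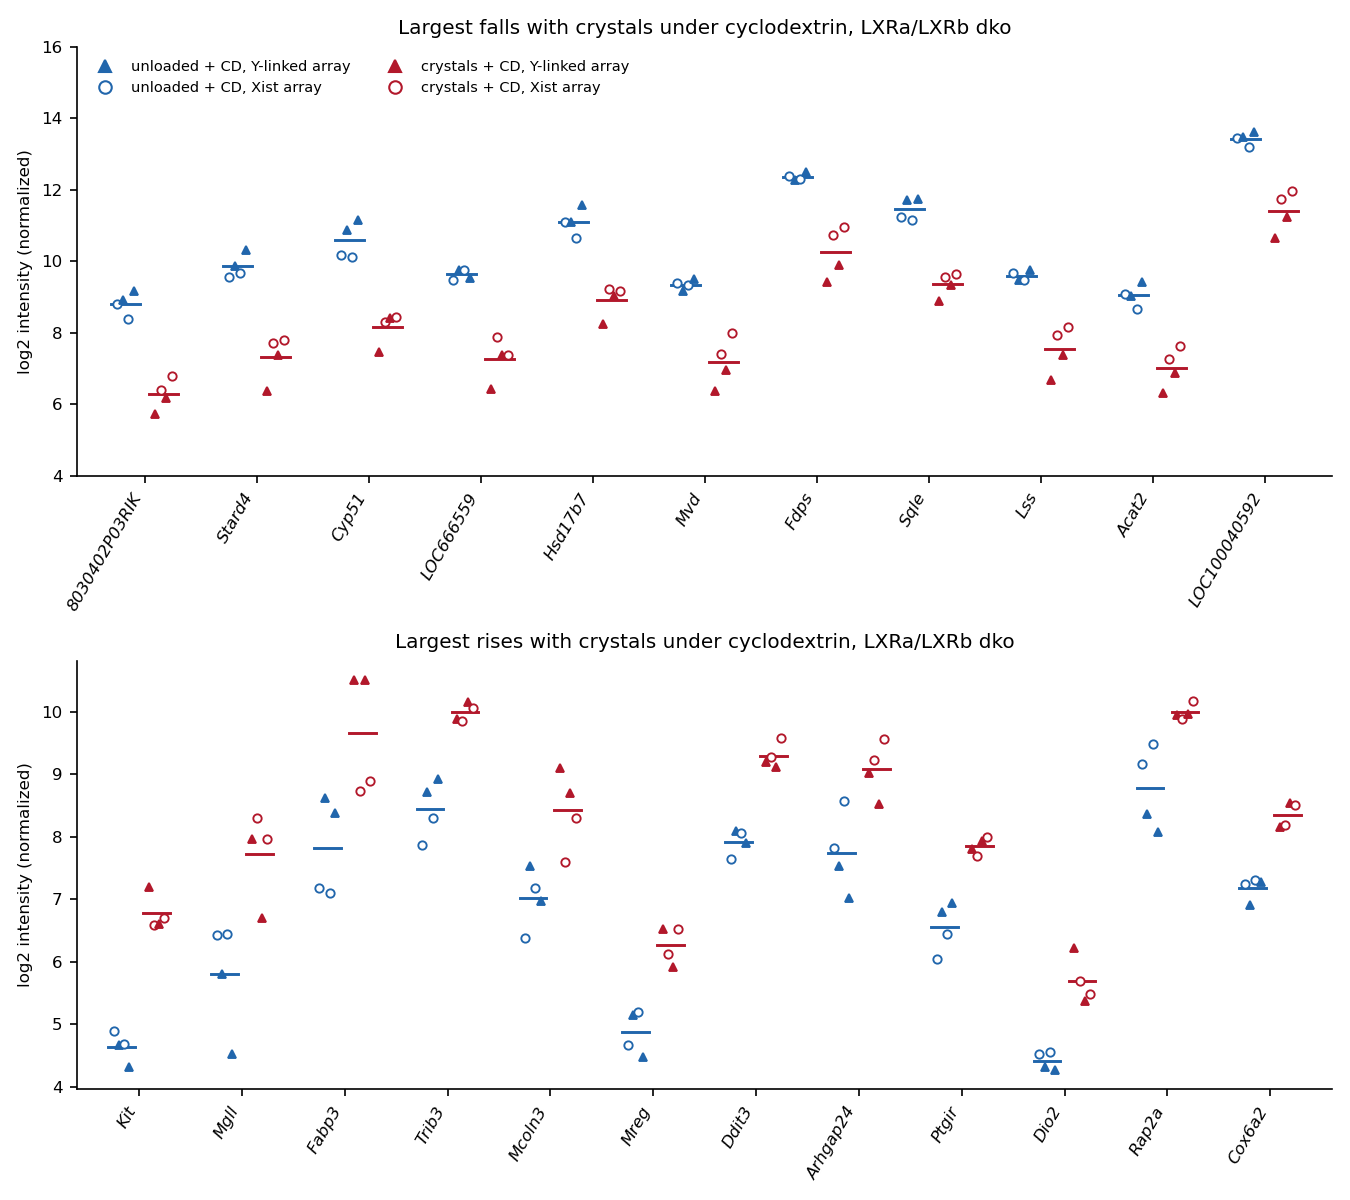
Normalized log2 intensity (y axis) of 11 of the 12 genes that fell most (upper panel) and the 12 that rose most (lower panel) in each of the 8 arrays. Blue marks unloaded arrays with CD and red marks crystal-loaded arrays with CD. Triangles are arrays with Y-linked transcripts, open circles are arrays with Xist, and each bar is a group mean (n = 4). The groups do not overlap for any of the 11 falls drawn, and only Arhgap24 overlaps among the rises.

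The falls were led by cholesterol synthesis and uptake. Of 23 measured genes of that list, 18 fell and none rose, with a median log2 change of -1.59 over the 23 against 0.00 over all genes. All 18 calls held whichever array was left out. The list was chosen with earlier results of these data known, so its direction is not independent evidence. The median was -1.42 within the arrays with Xist and -2.15 within the arrays with Y-linked transcripts. Within slides 3, 4 and 6, which held both groups, it was -1.99, -1.33 and -1.60. Each of these values rests on 1 loaded array, and on slides 3 and 6 the 1 unloaded array was of the other array set, so slide and set cannot be told apart there. The median of the NF-kB list ran from -1.80 to 2.22 in the same comparisons.

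Stard4 and Cyp51 fell most within the list. Stard4, a carrier of cholesterol between membranes inside the cell, read 6.38, 7.71, 7.37 and 7.81 in the loaded arrays and 9.56, 9.87, 9.67 and 10.33 in the unloaded arrays. Every loaded array was lower than every unloaded array, and the log2 change was -2.54 (SE 0.28, limma adjusted p = 2.1e-07), a level 5.82-fold lower. Cyp51, which removes a methyl group from lanosterol, read 7.47, 8.30, 8.42 and 8.44 loaded against 10.19, 10.87, 10.11 and 11.17 unloaded. Its change of -2.43 (SE 0.26, limma adjusted p = 1.7e-07) came next in the list, and loaded array 6 lay below the other 3 loaded arrays.

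The early steps of the pathway, from acetyl groups to farnesyl diphosphate, fell together except for Mvk. Acat2, which joins acetyl-CoA units, changed by -2.03 (SE 0.22). Pmvk and Mvd, which phosphorylate and decarboxylate mevalonate, changed by -1.31 (SE 0.18) and -2.17 (SE 0.24). Idi1, the isomerase of the C5 building block, changed by -1.59 (SE 0.30) and was detected on 2 of the 4 loaded arrays. Fdps, which makes farnesyl diphosphate, read 9.43, 10.75, 9.91 and 10.95 loaded against 12.38, 12.28, 12.31 and 12.50 unloaded. The groups did not overlap, and the 2 loaded arrays with Y-linked transcripts were the lowest. Mvk, the kinase before Pmvk, had a change of -0.53 (SE 0.15) that did not pass the test (limma adjusted p = 0.174).

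Transcripts the array names only as similar to pathway genes moved with them. LOC666559, described in the deposited table as similar to farnesyl pyrophosphate synthase, changed by -2.37 (SE 0.22). LOC100040592, described there as similar to the Hmgcs1 protein, read 10.66, 11.75, 11.24 and 11.96 loaded against 13.45, 13.47, 13.19 and 13.63 unloaded. Near-identical copies can share signal on such probes, so these transcripts are uncertain and are not counted in the list. The unannotated transcript 8030402P03RIK had the smallest adjusted p of all (change -2.54, SE 0.23, limma adjusted p = 2.9e-08).

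In the later steps, from squalene to cholesterol, every measured enzyme of the list fell except 2. Sqle, which oxidises squalene, read 8.88, 9.56, 9.35 and 9.65 loaded against 11.24, 11.71, 11.17 and 11.74 unloaded, a change of -2.11 (SE 0.20). Lss, which closes the rings to lanosterol, changed by -2.06 (SE 0.24). The demethylation enzymes Msmo1, Nsdhl and Hsd17b7 changed by -1.98 (SE 0.32), -1.53 (SE 0.20) and -2.19 (SE 0.23). Hsd17b7 read 8.24, 9.23, 9.04 and 9.17 loaded against 11.11, 11.11, 10.66 and 11.57 unloaded, and its groups were more than 1 log2 unit apart. Sc5d and Dhcr7, enzymes of the last steps, changed by -1.35 (SE 0.17) and -1.39 (SE 0.25), with Sc5d detected on only 1 of the 4 loaded arrays. Ebp and Tm7sf2, an isomerase and a reductase of the same stretch, had changes of -0.28 (SE 0.12) and -0.05 (SE 0.18), and neither passed the test. Erg28, a scaffold of the demethylation complex outside the list, fell by 0.89 (SE 0.13), chosen here after its value was seen.

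Srebf2, one of the 18 falls of the cholesterol list, is also in the list of sterol sensing and SREBP transport, where it was the only call. The 10 other measured genes of sterol sensing and SREBP transport did not pass the test, Scap, Insig2 and Npc1 among them at -0.07 (SE 0.22), 0.03 (SE 0.10) and 0.32 (SE 0.15). Srebf2, which encodes SREBP2 itself, read 6.36, 6.99, 6.91 and 6.99 loaded against 8.16, 8.38, 8.21 and 8.11 unloaded. Its change of -1.40 (SE 0.15, limma adjusted p = 1.6e-07) came with no overlap between the groups.

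Insig1, the retention factor and itself an SREBP2 target, differed in its change between the array sets, by an amount that depended on the probe. The loaded arrays read 7.65, 5.82, 7.45 and 5.15 and the unloaded arrays 5.64, 10.11, 5.88 and 10.05. The change of -1.40 (SE 0.76) did not pass the test over all arrays (limma adjusted p = 0.94) and passed with the set as a block (limma adjusted p = 0.00994). On the probe used, it was -0.27 within the arrays with Xist and -2.53 within the arrays with Y-linked transcripts. The other 2 detected probes changed by -1.43 and -1.20 within the arrays with Xist and by -2.72 and -2.46 within those with Y-linked transcripts, so the near absence of a fall with Xist rests on 1 of 3 probes. Insig1 was the only gene of the 14416 (0.00694%) whose crystal effect differed between the sets (difference -2.25, limma adjusted p = 0.0191), while 640 genes had an unadjusted p under 0.05. In a fit to every probe that passed the detection filter, chosen after seeing the data, the set differences of the other 2 probes were -1.29 and -1.26 and did not pass (limma adjusted p = 0.615 and 0.736), and that of the probe used did (limma adjusted p = 0.0282). The other probes had mean changes of -2.07 and -1.83, and on the first of them the unloaded arrays with Xist averaged 7.41 against 9.13 in those with Y-linked transcripts. The probe used averaged 5.76 and 10.08. It was also low in the untreated dko arrays with Xist, at 6.37 and 6.01, against 9.27 and 8.96 in those with Y-linked transcripts. The wt arrays with Xist and without crystals read 8.61 to 10.28 on it.

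**Figure D2:**
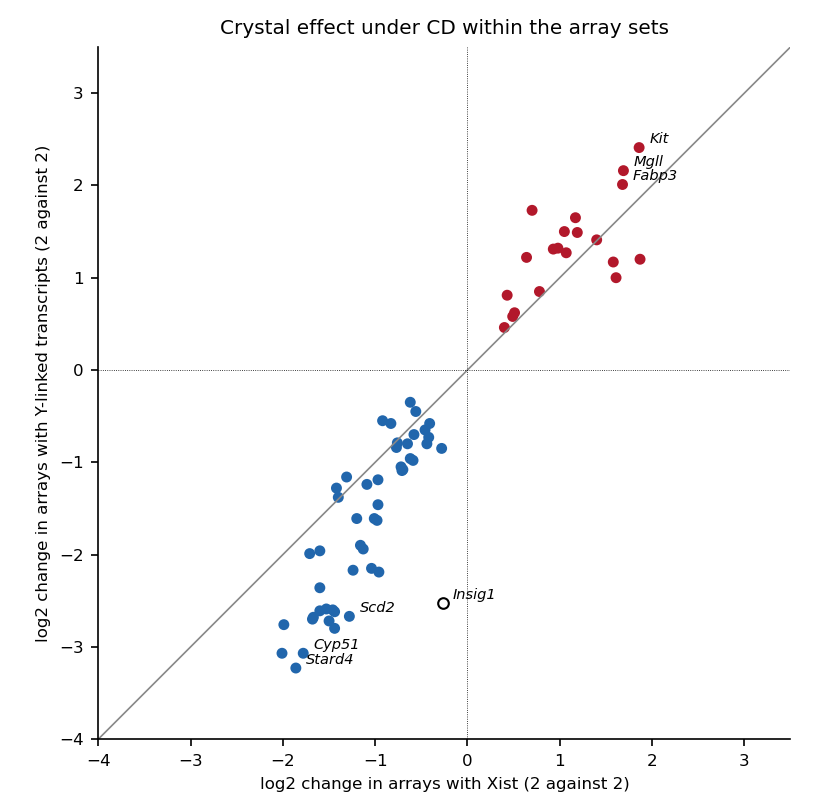
Log2 change with crystals under CD within the 4 arrays with Xist (x axis) and within the 4 arrays with Y-linked transcripts (y axis) for the 68 called genes and for Insig1 (open circle). Red marks genes called higher, blue marks genes called lower, and the grey line marks equal changes. All 68 changes have the same sign in both sets, and Insig1 lies far from the line at -0.27 and -2.53 on the probe drawn. Its other 2 detected probes, not drawn, lie nearer the line at -1.43 and -2.72 and at -1.20 and -2.46.

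The same direction was seen across the list, without passing adjustment. Of the 23 genes of the list, 21 had a more negative change there, with a median difference of -0.81 between the sets, and 13 of them had an unadjusted p under 0.05. Only Insig1 passed adjustment over all genes, on 1 of its 3 detected probes. Stard4 changed by -1.86 in the arrays with Xist and -3.23 in those with Y-linked transcripts. The arrays with Y-linked transcripts were also those with the higher NF-kB genes, and what each contributes was not tested.

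The promoters of these genes were read for short motifs. RefSeq promoter windows (GRCm38.p6) were found for 12 of the 18 genes that fell, and the 250 bases before each start site were searched on both strands. CCAAT, the motif bound by the factor NF-Y, was present in 11 of their 15 windows (73.3%) and in 33.8% of all 32851 windows in the table. GGGCGG, the motif of the factor Sp1, was present in 12 of 15 (80%) and in 32.7% of all. The sterol element spelled TCACNCCAC was in none of the 15 and in 1.05% of all, a statement about these letters in this window only. The windows of the table belong to 27025 genes, detected on these arrays or not, and no share over detected genes was taken. Dhcr7 and Pmvk each gave more than 1 of the 15 windows. For the 20 genes that rose, 14 were matched, and CCAAT was in 8 of their 26 windows (30.8%) and GGGCGG in 11 of 26 (42.3%). The windows of the 3 largest falls with a CCAAT match and a single start site are shown, on the strand of the gene, with each match or its reverse complement ATTGG in capitals, because these genes fell together.
Cyp51, chr5:4104698-4104947, minus strand: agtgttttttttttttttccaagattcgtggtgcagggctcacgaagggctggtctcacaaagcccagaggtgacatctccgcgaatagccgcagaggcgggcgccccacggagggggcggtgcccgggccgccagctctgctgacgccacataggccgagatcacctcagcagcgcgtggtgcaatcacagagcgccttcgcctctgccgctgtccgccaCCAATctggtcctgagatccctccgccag
Hsd17b7, chr1:169969206-169969455, minus strand: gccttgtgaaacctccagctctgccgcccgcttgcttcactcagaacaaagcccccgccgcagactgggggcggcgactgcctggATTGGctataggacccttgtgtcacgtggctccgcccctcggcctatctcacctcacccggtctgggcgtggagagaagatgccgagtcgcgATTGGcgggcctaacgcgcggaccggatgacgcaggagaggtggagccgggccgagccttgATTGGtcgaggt
Mvd, chr8:122443423-122443672, minus strand: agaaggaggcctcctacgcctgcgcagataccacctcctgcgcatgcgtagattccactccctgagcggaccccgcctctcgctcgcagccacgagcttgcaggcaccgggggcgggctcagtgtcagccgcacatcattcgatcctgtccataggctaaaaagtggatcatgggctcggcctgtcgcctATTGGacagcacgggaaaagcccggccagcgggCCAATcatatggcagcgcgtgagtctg

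The Cyp51 window held 1 match, whose first base lay at -29 from the start site. The Hsd17b7 window held 3, at -165, -73 and -12, and the Mvd window held 2, at -60 and -27. A match describes the sequence and is not a measured binding site.

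Fatty acid synthesis fell in part. Of 13 measured genes of that list, 5 fell and none rose, with a median change of -0.58. The list overlaps the LXR targets in 3 genes, Scd1, Scd2 and Acsl3. Acsl3, which activates long fatty acids with CoA, read 7.12, 7.76, 7.29 and 7.67 loaded against 9.45, 9.23, 9.17 and 9.09 unloaded, a change of -1.78 (SE 0.18). Elovl6, which lengthens palmitate, changed by -1.58 (SE 0.26), and Fads2, a polyunsaturated fatty acid desaturase detected on 2 of the 4 loaded arrays, by -1.17 (SE 0.17). Acly, which supplies cytosolic acetyl-CoA from citrate, read 11.22, 11.43, 11.50 and 11.41 loaded against 12.10, 12.09, 12.03 and 12.23 unloaded. Its change of -0.72 (SE 0.12) was small, and the groups did not overlap. Genes around acetyl-CoA supply that are in no list, and were picked here after their values were seen, also fell. Aacs, which makes acetoacetyl-CoA, changed by -1.70 (SE 0.17), and Slc25a1, the mitochondrial citrate carrier, by -0.79 (SE 0.19). The call on Slc25a1 was lost without any of 7 of the 8 arrays (limma adjusted p up to 0.24), and the call on Aacs held without each.

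Scd1 and Scd2, stearoyl-CoA desaturases that make oleate from stearate, had lower means with crystals. Scd2 read 4.87, 6.97, 5.28 and 6.87 loaded against 8.12, 7.66, 8.29 and 7.83 unloaded. The loaded arrays with Y-linked transcripts were the lowest, and the change was -1.98 (SE 0.33, limma adjusted p = 0.00055). Scd1 had a change of -1.05 (SE 0.29) with overlapping groups and did not pass the test (limma adjusted p = 0.145), whereas it passed with the set as a block (limma adjusted p = 0.00252) and without loaded array 7 (limma adjusted p = 0.0256).

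**Figure D3:**
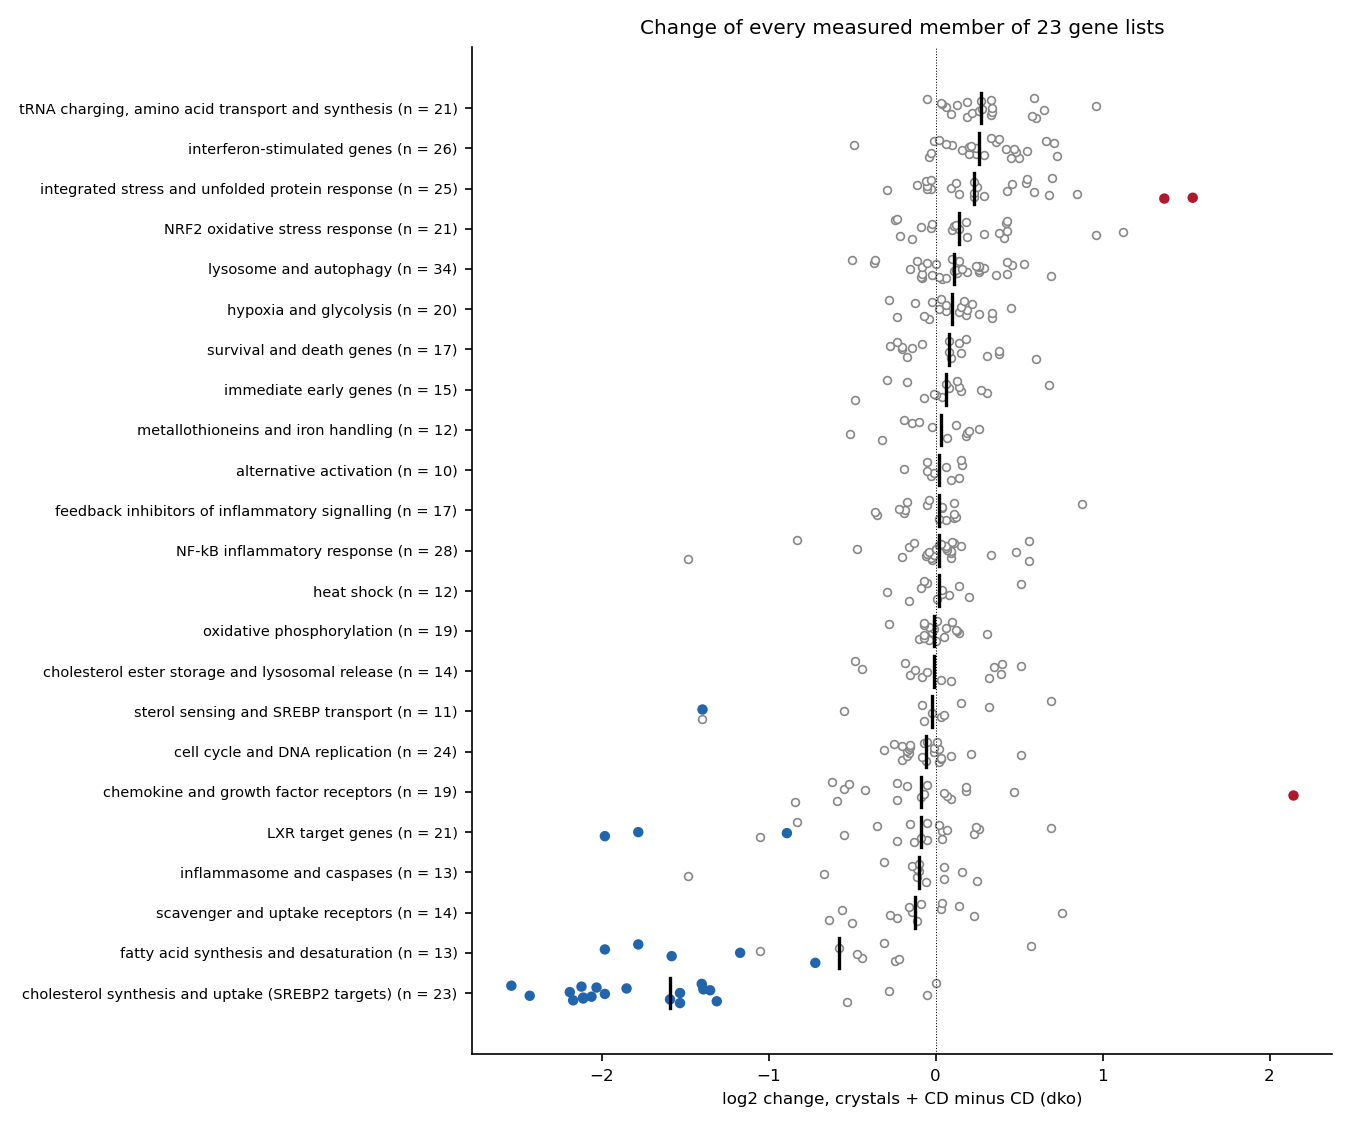
Log2 change with crystals under CD (x axis) of every measured member of 23 gene lists (y axis, number measured in brackets). Filled points passed an adjusted p of 0.05 (blue lower, red higher), open points did not, and black bars are list medians. The medians of cholesterol synthesis (-1.59) and fatty acid synthesis (-0.58) lie apart from the other lists, whose medians run from -0.12 to 0.27.

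LXR target genes did not rise. Of 21 measured, 16 were detected on all 8 arrays, and Apoc1 and Ptgs1 on 0 of them. None of the 21 was called higher and 3 fell, with a median of -0.09. The 3 were Scd2, Acsl3 and Lpcat3, the last an enzyme that puts polyunsaturated chains into phospholipids, with a change of -0.89 (SE 0.16, limma adjusted p = 0.00169). Lpcat3 read 8.06, 8.19, 8.14 and 8.53 loaded against 9.06, 9.11, 9.06 and 9.25 unloaded. Abcg1 read 7.58, 8.61, 7.56 and 8.41 loaded against 8.88, 7.86, 8.90 and 7.42 unloaded, with arrays of the 2 groups overlapping. Its difference was -0.23 (SE 0.29), with a 95% interval of -0.82 to 0.36. Abca1, the other main exporter, had a difference of -0.13 (SE 0.18) and a 95% interval of -0.49 to 0.24. Its probe lay near the floor of the array, with means of 4.83 loaded and 4.95 unloaded, and was detected on 23 of the 36 arrays. A fold is understated there, so the narrow interval says little about Abca1. Srebf1, the SREBP1 gene, had a change of -0.55 (SE 0.18) that did not pass the test (limma adjusted p = 0.347), although its groups did not overlap. Gramd1b, a carrier of cholesterol from the plasma membrane to the endoplasmic reticulum, had a change of 0.69 (SE 0.18) in the other direction (limma adjusted p = 0.0989, and 0.0155 with the set as a block).

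The 20 rises held 3 members of the pathway lists, Kit, Ddit3 and Trib3. Kit, the receptor for stem cell factor, rose most. It read 7.20, 6.59, 6.60 and 6.71 loaded against 4.89, 4.67, 4.68 and 4.32 unloaded, where 3 of 4 arrays detected it. The groups lay well apart, with a change of 2.14 (SE 0.28, limma adjusted p = 1e-05), a level 4.39-fold higher. The rise rests on 1 probe. The other Kit probes did not pass the detection filter, were detected on 0 and 1 of the 8 arrays, and differed by -0.05 and -0.04. Kit is also a marker of mast cells and progenitors. Of the 14 erythroid and mast cell markers, 6 were measured, only Kit was called, and the mast cell genes Cpa3, Mcpt4 and Ms4a2 were not among the measured genes. The summed intensity of the list, Kit included, was 209 to 263 in loaded and 134 to 168 in unloaded arrays, and the part of other cells in the rise of Kit was not tested.

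Stress genes rose in part. Ddit3, which encodes the stress factor CHOP, read 9.20, 9.28, 9.12 and 9.58 loaded against 7.65, 8.09, 8.06 and 7.90 unloaded. The change was 1.37 (SE 0.21, limma adjusted p = 0.00019), and no array overlapped. Trib3, a pseudokinase induced downstream of CHOP, read 9.89, 9.85, 10.16 and 10.07 loaded against 7.87, 8.72, 8.30 and 8.93 unloaded. Its change was 1.54 (SE 0.32, limma adjusted p = 0.0114), and the call was lost without unloaded array 6 (limma adjusted p = 0.0984) or loaded array 8 (limma adjusted p = 0.0529). Of 25 measured genes of the integrated stress and unfolded protein response, these were the 2 called, and the median was 0.23. None of the 21 measured genes of tRNA charging and amino acid supply passed the test, although 20 had positive changes (median 0.27). The 3 with the smallest p were Sars at 0.65 (SE 0.21), Aars at 0.60 (SE 0.21) and Asns at 0.59 (SE 0.25), and Sars passed with the set as a block (limma adjusted p = 0.0226). LOC666036, described in the deposited table as similar to 3-phosphoglycerate dehydrogenase of serine synthesis, changed by 0.93 (SE 0.20), and its call was lost without any of 5 arrays (limma adjusted p up to 0.137).

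Most of the 20 rises belong to none of the pathway lists. Mgll, which frees fatty acids from monoacylglycerol, read 7.97, 8.30, 6.70 and 7.96 loaded against 6.43, 5.81, 6.44 and 4.53 unloaded. Fabp3, a fatty acid carrier, read 10.51, 8.74, 10.51 and 8.89 loaded against 7.18, 8.63, 7.10 and 8.38 unloaded. The groups did not overlap for either gene. For Fabp3 both groups split by set, and the lowest loaded array (8.74, with Xist) lay close to the highest unloaded array (8.63, with Y-linked transcripts). The changes were 1.92 (SE 0.44, limma adjusted p = 0.0331) and 1.84 (SE 0.39, limma adjusted p = 0.0149). The call on Mgll was lost without any of 5 arrays, with an adjusted p up to 0.247 in limma, and that on Fabp3 without any of 4, up to 0.128. Mcoln3, a calcium channel of endosomes and lysosomes, changed by 1.41 (SE 0.34), and its call was lost without any of 6 arrays (limma adjusted p up to 0.257). Mreg, which takes part in organelle traffic, changed by 1.41 (SE 0.26) and kept its call without each array, although it was detected on 2 of the 4 unloaded arrays. None of the 34 measured lysosome and autophagy genes was called (median 0.11), and the proton pump subunits Atp6v1c1 and Atp6v1h, with the smallest p of the list, differed by 0.53 (SE 0.17) and 0.46 (SE 0.15).

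The remaining named rises encode signalling proteins and others. Ptgir, the prostacyclin receptor, changed by 1.30 (SE 0.30), Arhgap24, which switches off the GTPase Rac, by 1.34 (SE 0.29), and Rap2a, a small GTPase, by 1.22 (SE 0.26). Rap2a read 9.95, 9.88, 9.97 and 10.17 loaded, a narrow range, against 9.17, 8.37, 9.49 and 8.08 unloaded, where the arrays with Y-linked transcripts were lowest. Cox6a2, a subunit of cytochrome c oxidase typical of muscle, changed by 1.17 (SE 0.28, limma adjusted p = 0.0458), and its call was lost without each of the 8 arrays. Dio2, which activates thyroid hormone, was not well above background on any unloaded array and was at least 2.03-fold higher with crystals (limma adjusted p = 0.0101). Without loaded array 6 the call on Dio2 was lost (limma adjusted p = 0.0888). The calls on Ptgir, Arhgap24 and Rap2a were lost without 5, 3 and 3 of the arrays. Orm1, an acute phase protein, and Plcl2, a phospholipase C-like signalling protein, changed by 1.15 (SE 0.23) and 0.62 (SE 0.11) and held without each array, although Orm1 was detected on only 1 of the 4 unloaded arrays. Both were picked after their values were seen.

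Inflammatory and defence genes did not pass the test. None of 28 NF-kB genes, 26 interferon-stimulated genes, 13 inflammasome genes or 21 NRF2 genes was called, with medians of 0.02, 0.26, -0.10 and 0.14. Il1b, the cytokine interleukin-1 beta, differed by -1.48 with an SE of 1.29, and its SD between loaded arrays was 2.99. Tnf differed by 0.56 (SE 0.88), Cxcl10 by -0.01 (SE 0.71), Rsad2 by 0.73 (SE 0.50) and Acod1 by 0.56 (SE 0.84). Levels of Il1b and Tnf also separated the array sets (differences 5.06 and 3.10), and their SEs are correspondingly wide. Il18 had a more even level, with a change of -0.67 (SE 0.17, limma adjusted p = 0.0795), and passed with the set as a block (limma adjusted p = 0.0433). Gsta3 and Nqo1 of the NRF2 list differed by 1.12 (SE 0.37) and 0.41 (SE 0.18), and Hmox1 by -0.14 (SE 0.41). Tent5c, a poly(A) polymerase, differed by 1.13 (SE 0.29, limma adjusted p = 0.083) and passed with the set as a block (limma adjusted p = 0.0303). Slc7a11, the cystine transporter, differed by 0.96 (SE 0.71), Gdf15, a stress cytokine, by 0.70 (SE 0.63), Cytip by -0.96 (SE 0.47) and Vegfa by -0.04 (SE 0.33). Within both sets, loaded arrays lay above unloaded ones for Tnf, Acod1, Slc7a11 and Gdf15 and below them for Il1b and Cytip. Such separation was seen for 837 genes upward and 985 downward. With the set as a block, Il1b, Tnf, Slc7a11 and Gdf15 did not pass. No gene was called among uptake receptors (14 measured), cholesterol ester storage (14), heat shock (12), iron handling (12), cell cycle (24), glycolysis (20), oxidative phosphorylation (19), survival (17), immediate early (15), alternative activation (10) or inflammatory feedback genes (17).

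The same crystals without CD gave a response in dko macrophages with no gene called as different from the response under CD. Without CD, 60 genes were called (34 higher and 26 lower, 0.416% of those tested). Of these, 30 were also called under CD, 50% of the 60 and 44.1% of the 68. The crystal-by-CD interaction, which shares no array between its 2 effects, called 0 genes in limma (0%), 265 had an unadjusted p under 0.05, and the smallest adjusted p was 1. In the cholesterol list 22 of the 23 interaction values were negative, with a median of -0.64, and 7 had an unadjusted p under 0.05. For Stard4 the change was -1.79 without CD, and the interaction was -0.75 (95% interval -1.54 to 0.04). For Mvd the change was -1.13 without CD, and the interaction was -1.05 (95% interval -1.73 to -0.36, limma adjusted p = 1). For Kit the change was 2.46 without CD, and the interaction was -0.33 (95% interval -1.14 to 0.49). A p that misses the threshold does not show that the effects were equal.

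The levels in the 4 dko conditions are given for the sterol genes. Stard4 averaged 9.27 ± 0.34 (SD, n = 4) untreated and 7.48 ± 0.32 with crystals alone, then 9.86 ± 0.34 with CD and 7.32 ± 0.65 with both. Cyp51 averaged 9.79 ± 0.48, 8.08 ± 0.40, 10.59 ± 0.52 and 8.16 ± 0.46 in the same order. For both genes the means of the 2 loaded conditions lay below those of the 2 unloaded conditions, and the highest mean was that of CD alone. Srebf2 averaged 7.76 ± 0.05, 6.49 ± 0.12, 8.22 ± 0.12 and 6.81 ± 0.30.

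**Figure D4:**
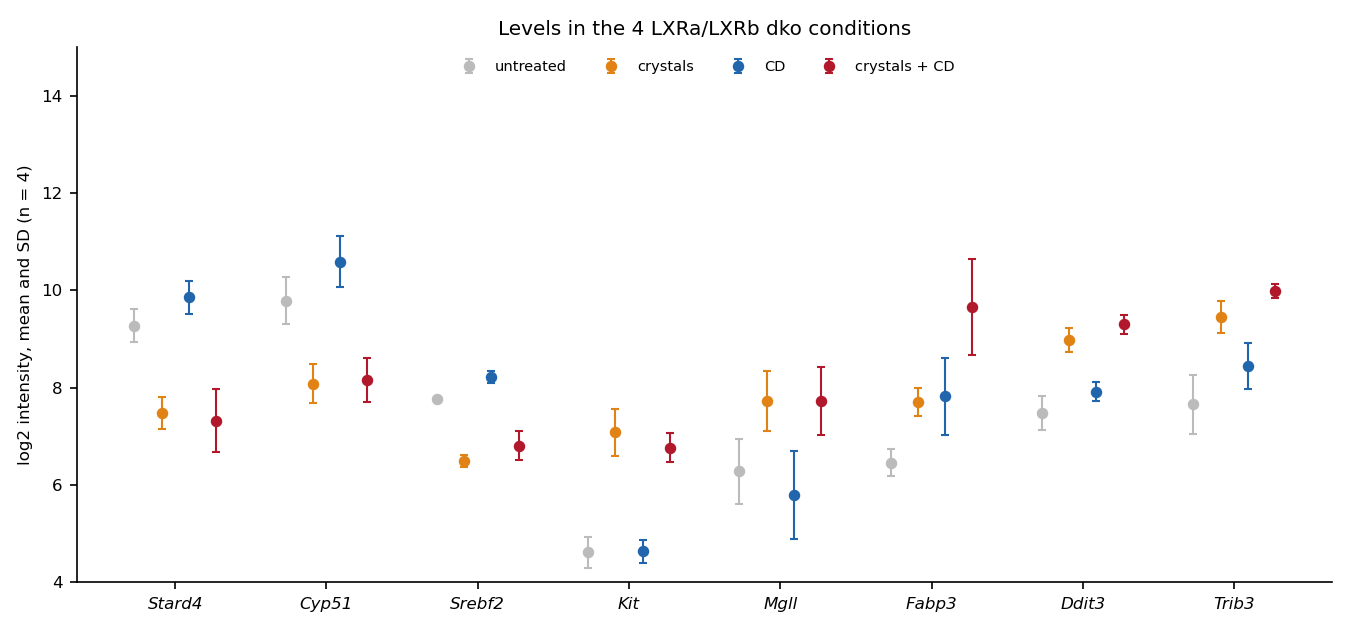
Mean log2 intensity with SD (y axis, n = 4 arrays) of 8 genes in untreated, crystal-loaded, CD-treated, and crystal-loaded and CD-treated dko macrophages. For Stard4, Cyp51 and Srebf2 both crystal-loaded conditions lie below both unloaded conditions, and for Kit, Ddit3 and Trib3 both lie above.

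In wt macrophages the same comparison under CD called 1095 genes (7.6% of those tested, 4.03% higher and 3.57% lower). Of the 68 genes called in dko, 62 were called in wt in the same direction, which is 91.2% of the 68 and 5.66% of the 1095. In wt, the 3 loaded arrays with Xist were all on slide 1 and the 3 unloaded arrays with Xist all on slide 5, so slide and crystals cannot be told apart among them, and only slide 6 held both groups. With the slide as a block the wt count was 442 (3.07% of those tested), and 57 of the 68 were among them in the same direction, 83.8% of the 68 and 12.9% of the 442. Under CD, crystals changed the cholesterol list by a median of -2.17 in wt, where 21 of 23 genes fell (20 with the slide as a block). The difference between genotypes was tested for every gene and called none of the 23, although 22 had a smaller fall in dko by their estimates (median difference 0.24). An unadjusted p was under 0.05 for 7 of the 23, of which 6 had the smaller fall in dko and 1, Sc5d, had the larger (difference -0.51). Stard4 fell by 3.64 in wt against 2.54 in dko, a difference of 1.10 (SE 0.37, limma adjusted p = 1).

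**Figure D5:**
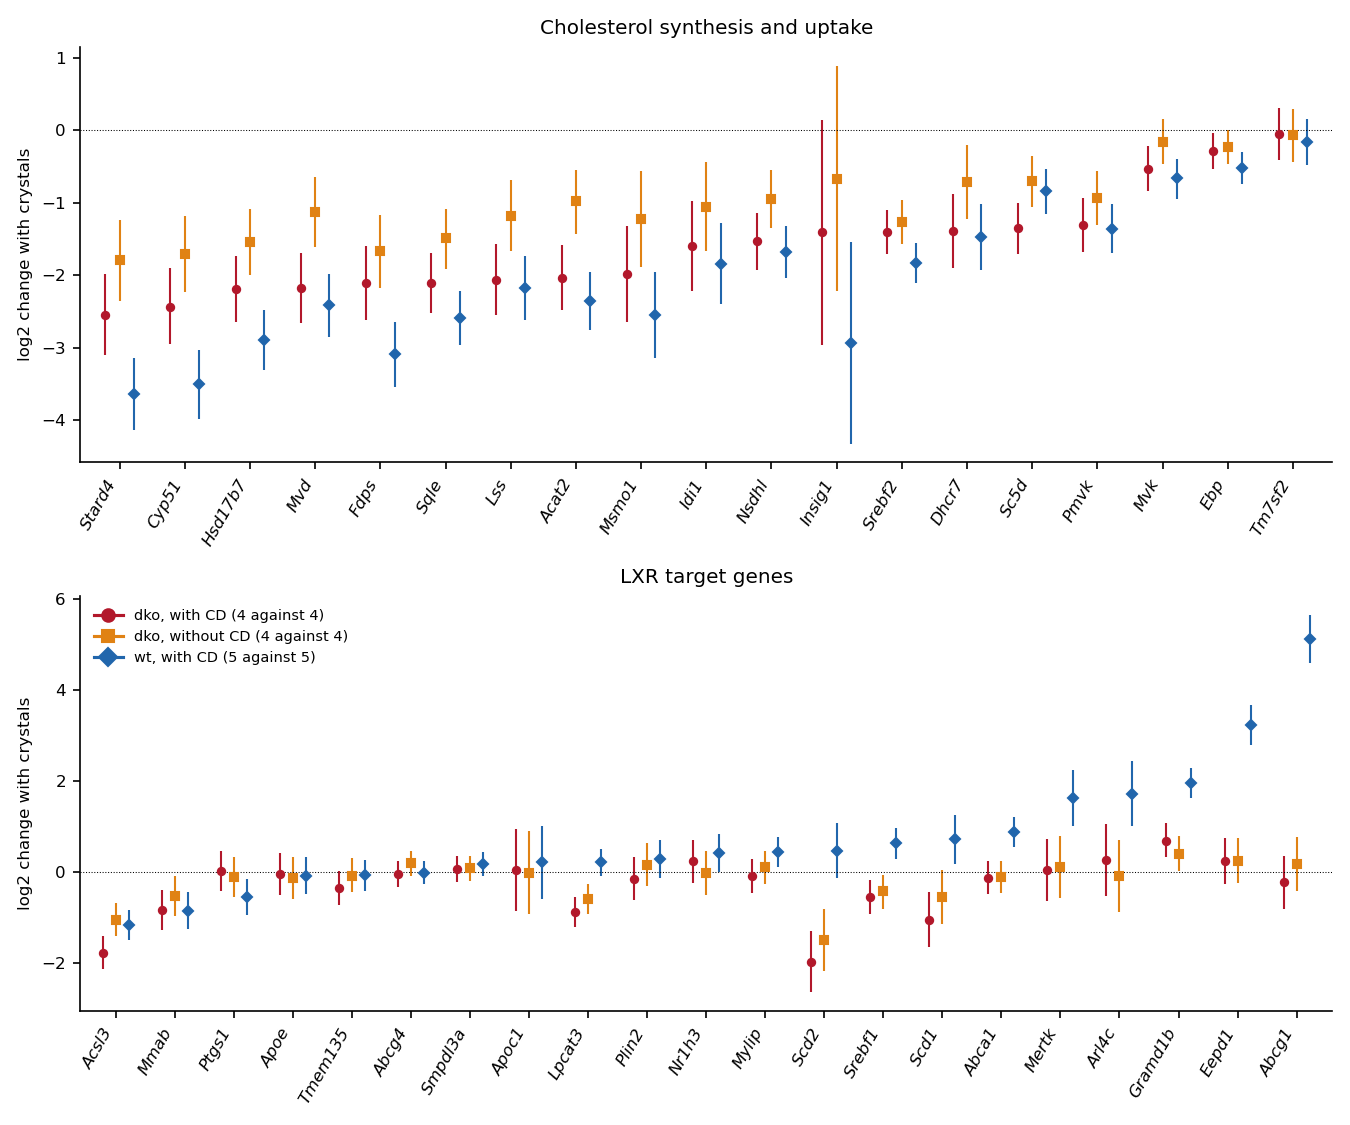
Log2 change with crystals (y axis, 95% intervals) for 19 of the 23 cholesterol genes (upper panel) and 21 LXR targets (lower panel) in dko with CD (red), dko without CD (orange) and wt with CD (blue). The median change over all 23 is -1.59, -1.06 and -2.17 in that order, and Abcg1 and Eepd1 stand at 5.13 and 3.24 in wt.

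The genotype difference called 7 genes (0.0486% of those tested), each with a lower value in dko, and 502 genes had an unadjusted p under 0.05. Abcg1 rose by 5.13 in wt, from 5.33 ± 0.50 (SD, n = 5) with CD alone to 10.46 ± 0.45 with crystals and CD. Without CD, wt arrays read 7.56 to 7.94 untreated and 10.46 to 11.36 with crystals, so the level with CD alone lay below untreated. In dko, Abcg1 averaged 8.27 ± 0.74 (SD, n = 4) with CD alone and 8.04 ± 0.55 with crystals and CD. The genotype difference under CD was -5.36 (SE 0.39, limma adjusted p = 7.9e-11). Eepd1, a protein that promotes Abca1 activity and an LXR target, was next, with 5.10 ± 0.41 and 8.34 ± 0.38 in wt against 6.52 ± 0.31 and 6.76 ± 0.42 in dko, a difference of -3.00 (SE 0.33, limma adjusted p = 1.4e-06). Gramd1b and Ap5s1, a subunit of an adaptor complex, differed by -1.26 (SE 0.25) and -1.80 (SE 0.35), and rose in wt by 1.95 and 1.82.

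For the other 3 genes, the called change was a fall in dko. Scd2 went from 6.04 ± 0.19 to 6.51 ± 0.68 in wt (SD, n = 5), a change of 0.47 that did not pass the test, and from 7.97 ± 0.28 to 6.00 ± 1.08 in dko (SD, n = 4). Its genotype difference was -2.44 (SE 0.44, limma adjusted p = 0.0165). Lpcat3 and LOC100043671, a transcript the deposited table calls a hypothetical protein, fell in dko by 0.89 and 1.22, while the wt changes of 0.21 and 0.22 did not pass the test. Their genotype differences were -1.10 (SE 0.22) and -1.43 (SE 0.22). The calls on Abcg1, Eepd1 and LOC100043671 held without each of the 8 dko arrays. Those on Scd2, Lpcat3, Gramd1b and Ap5s1 did not, with a limma adjusted p of up to 0.0767, 0.117, 0.132 and 0.131, and with the slide as a block Scd2, Lpcat3 and Gramd1b also lost theirs (limma adjusted p = 0.136, 0.24 and 0.0731).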

How the data were processed

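RNA was extracted with TRIzol and hybridised as biotin-labelled cRNA to Illumina bead arrays, per the labels' protocols. The deposited table holds a probe intensity and a detection p-value for each of the 36 arrays, with no normalization between arrays as far as the values show. It held 45281 probes, with array medians of 83.5 to 103 over the 8 arrays compared and 15567 to 17457 probes detected. The authors' deposited series values are log2 of the same intensity to within 5.57e-05, without centring (array medians 6.38 to 6.68), and were used as an alternative. Partek is named in the submitters' processing notes without a role, and the labels name no other processing step.

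The intensities were background-corrected, quantile-normalized and set on the log2 scale with limma's neqc (limma 3.58.1 in R 4.3.3, offset 16). Probes with a detection p-value under 0.05 on at least 4 of the 36 arrays were kept (21126), and the kept probe with the highest mean stood for each gene, which left 14416 genes. Names were updated by symbol (27743 probes) or synonym (7997) from a RefSeq gene table, and 9541 probes kept the name in the deposited table. A model of the 8 group means was fitted to all 36 arrays with lmFit and eBayes (28 residual and 3.94 prior degrees of freedom), and p-values were adjusted over all genes by Benjamini and Hochberg. The arrays pooled in this fit share 1 estimate of the spread. Intervals are at 95%. The test was checked on simulated data.

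Named genes are the 12 largest falls and rises among the calls, the 3 members of each list with the smallest p, a fixed set, and the leading genes of the 2 difference contrasts. Some genes that this rule takes are not reported here. Other names are marked as chosen after their values were seen. The members and lists were chosen with earlier results of these data known. The number of arrays limits the precision. Alternatives were the normalization, the filters, the choice of probe, the arrays fitted, replicate, slide and array set blocks, array weights, a minimum fold, and leaving out arrays. No column of per-sample values was left unused (0).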

Additional observations from a re-analysis of the deposited data

Results flagged for a closer look

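Among 282 groups of 4 arrays, 2 for each of 141 genes, 12 had an array whose gap to its nearest neighbour was above Dixon's 95% critical value for the group's range, which chance exceeds in about 1 in 20 groups. The low values were Cyp51 at 7.47, Srebf2 at 6.36, Heca at 6.55 and Usf3 at 7.32, all in loaded array 6. Loaded array 7 stood apart in Plcl2 at 8.06 and Il10ra at 9.18, and loaded array 9 in Hopx at 4.70. Among unloaded arrays, array 7 stood apart in Cox6a2 at 6.91 and Pycard at 5.46, array 6 in Nr1h3 at 10.34, array 8 in Sars at 8.50 and array 9 in Hopx at 5.02.

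The crystal effect under CD differed between dko and wt in 7 genes by limma's test of the difference itself. The log2 differences were -5.36 for Abcg1, -3.00 for Eepd1, -2.44 for Scd2, -1.80 for Ap5s1, -1.43 for LOC100043671, -1.26 for Gramd1b and -1.10 for Lpcat3. Within dko, the effect differed between the array sets in 1 gene, Insig1, by -2.25. That value comes from 1 of 3 detected probes, and the other 2 had set differences of -1.29 and -1.26 that did not pass (limma adjusted p = 0.615 and 0.736).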

How the results depend on the processing

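Beside the settings reported, 31 others were run, 5 of them chosen after seeing the data, and the 68 called genes kept their sign under every setting that tested them. The median of the cholesterol list ran from -2.15 to -0.95. The count of 68 calls became 31 with median scaling (9.68% higher against 29.4%), 17 with the deposited log2 values (0% higher), 31 with only the 8 arrays fitted, 107 with array weights and 23 with a minimum log2 change of 0.5. It became 159 with the array set as a block, 208 with that block and 16 dko arrays, 246 with that block and 8 arrays, 32 in the arrays with Xist alone and 243 in those with Y-linked transcripts alone. Median scaling and the deposited values moved the median of all genes by -0.04. Without 1 array or number, the count ran from 41 to 75, lowest without number 6.

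The label numbers were not taken to pair the arrays, since deviations of same-numbered arrays correlated at -0.59, -0.67, -0.72 and -0.53, and 0 of 4 loaded arrays correlated best with their own number. Each number stands on arrays of opposite sets in the 2 groups, and all pairs of opposite sets correlated between -0.74 and -0.53, so the check cannot be told apart from the sets. Whether any labels are crossed was not tested. With the replicate number as a block, limma called 91 genes, all 68 among them, and 0 genes with only the 8 arrays fitted, where 376 had an unadjusted p under 0.05.

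The interaction count of 0 became 1 in the arrays with Y-linked transcripts alone and stayed 0 without any 1 array or number. The 7 genotype differences became 2 with median scaling, 1 with the deposited log2 values, 3 without the detection filter, 12 with the replicate block, 2 with the minimum change, 18 with the set block, and 41 and 12 in the arrays with Xist and with Y-linked transcripts alone. They ran from 3 to 8 without 1 array or number, with 3 genes left without loaded array 6, 4 without loaded array 8 and 3 without unloaded array 8. The 60 calls without CD became 15, 3, 91, 136, 107, 342 and 2 with median scaling, the deposited values, 16 dko arrays, the replicate block, the slide block, array weights and the minimum change. They became 277 with the set block, 440 with that block and 16 dko arrays, and 27 and 420 in the 2 sets alone, and ran from 59 to 72 without 1 array or number. The 1095 calls in wt became 272, 79, 442, 85 and 2038 with median scaling, the deposited values, the slide block, the minimum change and the set block, and 1748 and 420 in the 2 sets alone. They ran from 1082 to 1144 without 1 array or number. The cause of these shifts was not tested. Over pairs of a gene and a setting, a call was kept in 1692 and lost in 597, while 65 gained a call and 2196 had none in either fit. Genes detected on few arrays lie near the floor of the array, where a fold is understated.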
